A study of Mus musculus with 9 samples.

Results

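The enzymes that divide arginine between nitric oxide (NO), ornithine and the polyamines were followed in neutrophils of mouse skin carcinogenesis. The set held 10 genes, chosen by name, among 34797 gene names on the array, and they were measured by 17 of 55681 probes. All 10 genes had at least 1 probe. Gr-1bright neutrophils had been sorted by flow cytometry from FVB/N mice that received the carcinogen DMBA when 6 and 13 weeks old. Alongside it the mice received the tumor promoter PMA repeatedly, from week 1 to a last week given as 18 to 20. This treatment was described for all 4 groups alike, without the last week of each group, and no group came from untreated skin. The groups were neutrophils of the skin around papillomas (papilloma skin, 2 arrays), of the skin around carcinomas (tumor skin, 2 arrays), of the benign papillomas (papilloma, 3 arrays) and of the squamous cell carcinomas (tumor, 2 arrays). Neutrophils for each array came from pooled tissue of several mice, and p-values therefore measure the spread between such arrays.

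Arginine enters myeloid cells through cationic amino acid transporters, of which Slc7a2 is the inducible one. Inducible NO synthase, encoded by Nos2, oxidizes arginine to NO and citrulline, and Ass1 and Asl turn citrulline back into arginine. Arginase 1 (Arg1, cytosolic) and arginase 2 (Arg2, mitochondrial) hydrolyze arginine to ornithine, which Odc1 decarboxylates to putrescine, the first polyamine. Srm and Sms add aminopropyl groups to make spermidine and spermine, and Sat1 acetylates both for breakdown or export. Neutrophils and macrophages in tumors are known for arginase and NO synthase, since depletion of arginine and formation of NO restrain T cells.

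Levels came from single-color Agilent arrays with probes of 60 bases, and the values used here are log2 levels from the table of all arrays that the authors deposited. The probes of both arginases are shown because one isozyme was called and the other was not, with the longest run of letters that they share, 7 bases, in capitals. In each, 1 of 3 reading frames had no stop codon.

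Arg1 (mm9, chr10:24636194-24636253, minus strand): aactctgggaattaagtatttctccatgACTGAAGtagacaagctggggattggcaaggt

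Arg2 (mm9, chr12:80252972-80253031, plus strand): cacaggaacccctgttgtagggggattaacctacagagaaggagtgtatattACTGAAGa

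The Nos2 probe, shown because Nos2 was called in all 4 group comparisons, lay at chr11:78773567-78773626 on the plus strand of the same build. Its first 30 bases, with no letters marked, were as follows.

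Nos2: caccatgccgccgctctaatacttagctgc

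Some columns of the deposited table stood apart from the scanner output of the same arrays. The column papilloma skin 1 ranked 55155 probes with a Spearman correlation of 0.588 against its own scanner file and 0.924 against that of tumor 2. The column tumor 1 reached 0.827 against its own file and 0.947 against that of tumor 2, and the columns papilloma 2 and papilloma 3 were each closest to the other's file. On papilloma skin 1, tumor skin 1 and tumor 1 the slopes of the spike-in controls were 0.678 to 0.894, against 1.04 to 1.06 on the other 6 arrays. Log2 fold changes of the members are therefore given from both sources for the lesion contrasts. The neutrophil markers S100a8 and S100a9 had log2 levels of 17.88 to 18.22 and 18.45 to 18.63, while Ly6g, the antigen of neutrophils that Gr-1 antibodies bind, ran from 9.30 to 12.65 and was called lower in tumor than in tumor skin (-2.09, limma adjusted p = 0.00894).

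Nos2 rose from skin to lesion at both stages, and it was also higher at the carcinoma stage than at the papilloma stage. Its log2 levels were 7.58 and 8.11 in papilloma skin, 9.68 and 9.78 in tumor skin, 10.76, 10.90 and 10.55 in papilloma and 12.70 and 12.37 in tumor. The 4 groups did not overlap and stood in the order papilloma skin, tumor skin, papilloma, tumor. In tumor against tumor skin the level was 6.99-fold higher (95% interval 4.95 to 9.87), or 2.81 ± 0.22 on the log2 scale (SE, n = 2 and 2, adjusted p = 0.000813 by limma). In papilloma against papilloma skin it was 7.44-fold higher (5.43 to 10.2), or 2.89 ± 0.20 on the log2 scale (SE, n = 3 and 2, adjusted p = 0.000271 by limma). The lesion effects of both stages differed by -0.09 ± 0.29 on the log2 scale (SE, 95% interval -0.76 to 0.58, limma adjusted p = 0.922). In bulk RNA of sorted cells, fewer cells of a type and less RNA per cell cannot be told apart.

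Between the lesions, Nos2 was 3.47-fold higher in tumor than in papilloma, or 1.79 ± 0.20 on the log2 scale (SE, adjusted p = 0.0113 by limma). Between the surrounding skins it was 3.69-fold higher in tumor skin than in papilloma skin, or 1.88 ± 0.22 on the log2 scale (SE, adjusted p = 0.0320 by limma). Of neighbors in this order, tumor skin and papilloma were not compared by a test. Both stage comparisons were less firm than the lesion effects. The tumor versus papilloma call was lost without papilloma 3 (adjusted p = 0.0666), without tumor 1 (0.0980) and without tumor 2 (0.0645), and the tumor skin versus papilloma skin call was lost whichever array was left out, with adjusted p of 0.0598 to 0.188. Without the columns papilloma skin 1 and tumor 1, Nos2 stayed called in tumor against tumor skin (log2 fold change 2.64, adjusted p = 0.0151) and papilloma against papilloma skin (2.63, adjusted p = 0.0160), but not in tumor against papilloma (1.63, adjusted p = 0.124) or between the skins (1.62, adjusted p = 0.273).

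**Figure D1:**
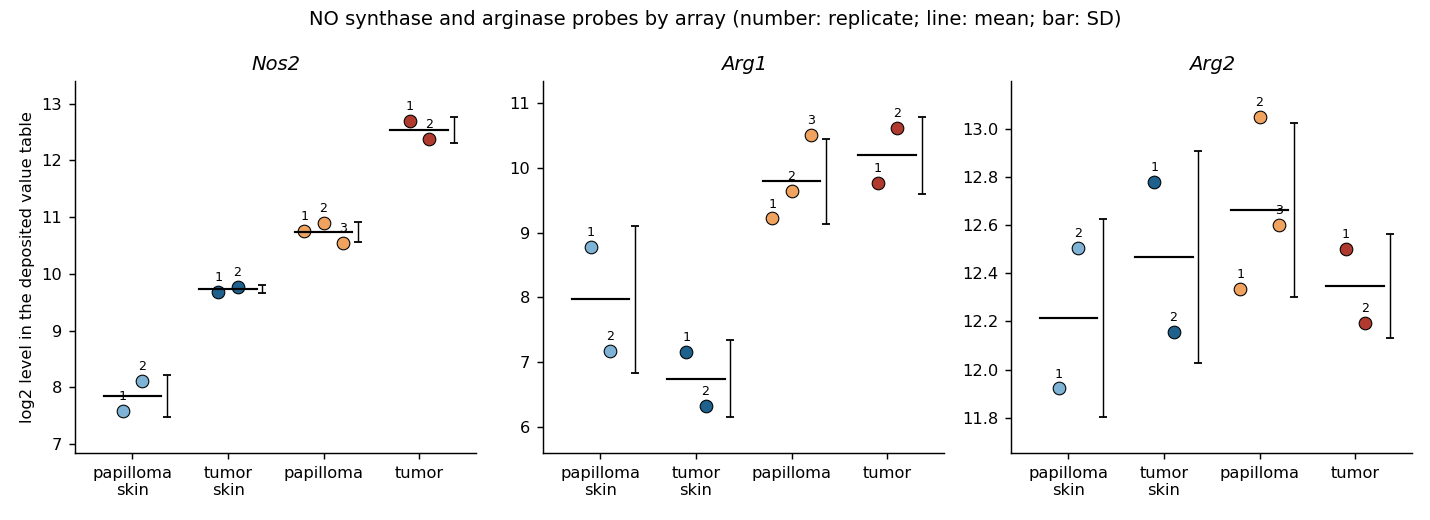
Log2 level of the Nos2, Arg1 and Arg2 probes in the deposited table (vertical axis, a separate range per panel) for each array of the 4 groups (horizontal axis), with points numbered by replicate, a line at the group mean and a bar of ± 1 SD. Nos2 forms 4 separate steps from 7.58 to 12.70, the lesions lie above the skins for Arg1, and the groups overlap for Arg2.

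Arg1 was higher in lesions than in skin, and the increase passed the threshold in tumors. Its log2 levels were 8.77 and 7.17 in papilloma skin, 7.16 and 6.32 in tumor skin, 9.22, 9.64 and 10.50 in papilloma and 9.77 and 10.61 in tumor. All 5 lesion arrays lay above all 4 skin arrays, while papilloma and tumor overlapped. In tumor against tumor skin Arg1 was 10.9-fold higher (95% interval 4.20 to 28.4), or 3.45 ± 0.60 on the log2 scale (SE, n = 2 and 2, adjusted p = 0.0128 by limma). The probe was well above background on 1 of the 2 tumor skin arrays and on every array of the other groups. Of all probes, 90.7% were well above background on tumor skin 1, where the spike-in slope was 0.876, and 44.2% on tumor skin 2. The fold in tumor therefore rests in part on a skin level not told from background. In papilloma against papilloma skin the log2 fold change was 1.82 ± 0.55 (SE, n = 3 and 2, 95% interval of the fold 1.47 to 8.44) and did not pass the threshold (limma adjusted p = 0.101).

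The difference between the Arg1 effects of both stages was 1.63 ± 0.81 on the log2 scale (SE, 95% interval -0.24 to 3.50, limma adjusted p = 0.399), so a larger effect in tumors was not shown. Between tumor and papilloma the log2 fold change was 0.40 ± 0.55 (SE, adjusted p = 0.761) and between tumor skin and papilloma skin -1.23 ± 0.60 (SE, adjusted p = 0.261). The tumor call was lost without tumor skin 2 (log2 fold change 3.03, adjusted p = 0.0548) and without tumor 2 (3.03, adjusted p = 0.0978). It was also lost with slide as a term (3.68, adjusted p = 0.104), and it was kept without the columns papilloma skin 1 and tumor 1 (3.87, adjusted p = 0.0354).

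The column papilloma skin 1 weighed on the papilloma result of Arg1. In the table this column held 8.77, the highest of the skins, whereas the scanner signals of that array gave 5.92 after quantile normalization, the lowest of the 9 arrays. From the scanner signals the log2 levels of Arg1 were 5.92 and 7.89 in papilloma skin, 6.04 and 5.97 in tumor skin, 8.20, 11.27 and 9.74 in papilloma and 10.47 and 11.46 in tumor. The lesions again lay above the skins, and the highest papilloma array was papilloma 2 instead of papilloma 3. Removing slide effects from these signals with ComBat, the log2 fold change of Arg1 was 2.96 ± 0.41 in papilloma against papilloma skin (SE, limma adjusted p = 0.00874) and 4.38 ± 0.44 in tumor against tumor skin (SE, limma adjusted p = 0.0202).

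Nos2 kept its order of groups in the scanner signals. The quantile-normalized levels were 6.51 and 8.23 in papilloma skin, 9.61 and 10.08 in tumor skin, 10.67, 10.64 and 11.06 in papilloma and 11.89 and 12.34 in tumor, again with no overlap between groups. With ComBat the log2 fold change was 3.35 ± 0.34 in papilloma against papilloma skin (SE, limma adjusted p = 0.00513) and 2.25 ± 0.37 in tumor against tumor skin (SE, limma adjusted p = 0.0575). It was 1.40 in tumor against papilloma (adjusted p = 0.136) and 2.51 between the skins (adjusted p = 0.167). In those values 7.19% of 55155 probes were called for papilloma and 0.221% for tumor. Without ComBat, no member was called in either lesion contrast from the scanner signals.

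Arrays on 1 slide could be compared without a slide difference, with limits. Slide 1 held the 3 arrays with low spike-in slopes, papilloma skin 1, tumor skin 1 and tumor 1, beside papilloma 1 with 1.04. In the deposited table, columns that ranked closest to the file of another array may not belong to the slide given here. On slide 1 the scanner levels of Nos2 differed by 2.27 between tumor and tumor skin and by 4.16 between papilloma and papilloma skin, and on slide 2 by 2.40 between papilloma and papilloma skin. For Arg1 the same differences were 4.43, 2.28 and 3.38. In the deposited table the same pairs differed by 3.02, 3.18 and 2.80 for Nos2 and by 2.61, 0.45 and 2.47 for Arg1. The lesion was the higher array in each of these pairs in both sources, and the Arg1 difference on slide 1 between papilloma and papilloma skin depended most on the source. Tumor exceeded papilloma on both slides, by 1.22 and 1.71 for Nos2 and by 2.27 and 0.20 for Arg1 in the scanner levels, and by 1.93 and 1.47 for Nos2 and 0.55 and 0.96 for Arg1 in the table. Slide 3 held tumor skin 2 and papilloma 3, so it gave no matched pair.

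**Figure D2:**
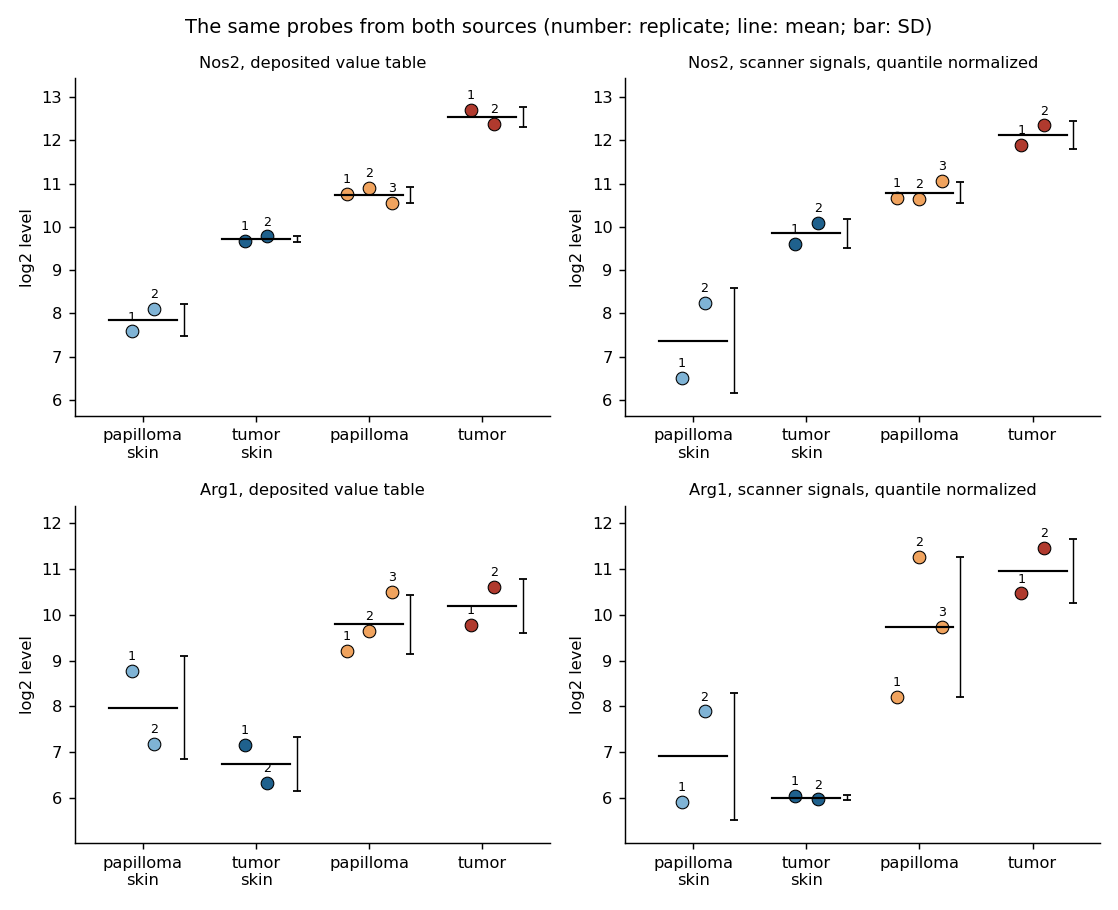
Log2 level (vertical axis, shared within a row) of Nos2 (upper row) and Arg1 (lower row) for each array by group, from the deposited table (left) and from quantile-normalized scanner signals without slide correction (right), with points numbered by replicate, group means as lines and ± 1 SD as bars. The order of the Nos2 groups is the same in both, while Arg1 on papilloma skin 1 stands at 8.77 on the left and 5.92 on the right.

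Arg2, the mitochondrial isozyme, was not called in any contrast of the table. Its log2 levels were 11.92 and 12.50 in papilloma skin, 12.78 and 12.16 in tumor skin, 12.34, 13.05 and 12.60 in papilloma and 12.50 and 12.19 in tumor. All 4 groups overlapped. The log2 fold change was -0.12 ± 0.31 in tumor against tumor skin (SE, 95% interval -0.83 to 0.59, limma adjusted p = 0.843) and 0.45 ± 0.28 in papilloma against papilloma skin (SE, 95% interval -0.20 to 1.10, limma adjusted p = 0.425). With scanner signals and ComBat these were -0.13 and 0.51, and the second was 1.45 and called with scaling to the 75th percentile in place of quantile normalization (limma adjusted p = 0.0419).

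Counted over the set, 2 of 17 probes were called higher in tumor than in tumor skin, Nos2 and Arg1, against 2.71% of all probes tested, and none lower, against 1.51%. In papilloma against papilloma skin 1 probe was called higher, Nos2, against 2.18% of all probes, and none lower, against 1.00%. In tumor against papilloma 1 probe was called higher, Nos2, against 0.113% of all probes, and none lower, against 0.334%. In tumor skin against papilloma skin 1 probe was called higher, Nos2, against 0.138% of all probes, and none lower, against 0.122%. For the difference between the lesion effects no member was called, against 0.0269% of all probes, and 2 members, Asl and Sms probe 2, had an unadjusted p under 0.05. Probes were called where the adjusted p did not exceed 0.05, the fold change was 1 or more on the log2 scale in either direction and the level averaged 6 or more over the arrays. Of the 17 probes, 16 reached that level.

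Groups that merely did not overlap were common. This held for 11 of 17 probes in tumor against tumor skin, against 52.1% of all probes, and for 6 of 17 in papilloma against papilloma skin, against 37.6%. The median log2 fold change of the members was 0.10 in tumor against tumor skin and 0.01 in papilloma against papilloma skin, and that of all probes was -0.02 and -0.01.

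**Figure D3:**
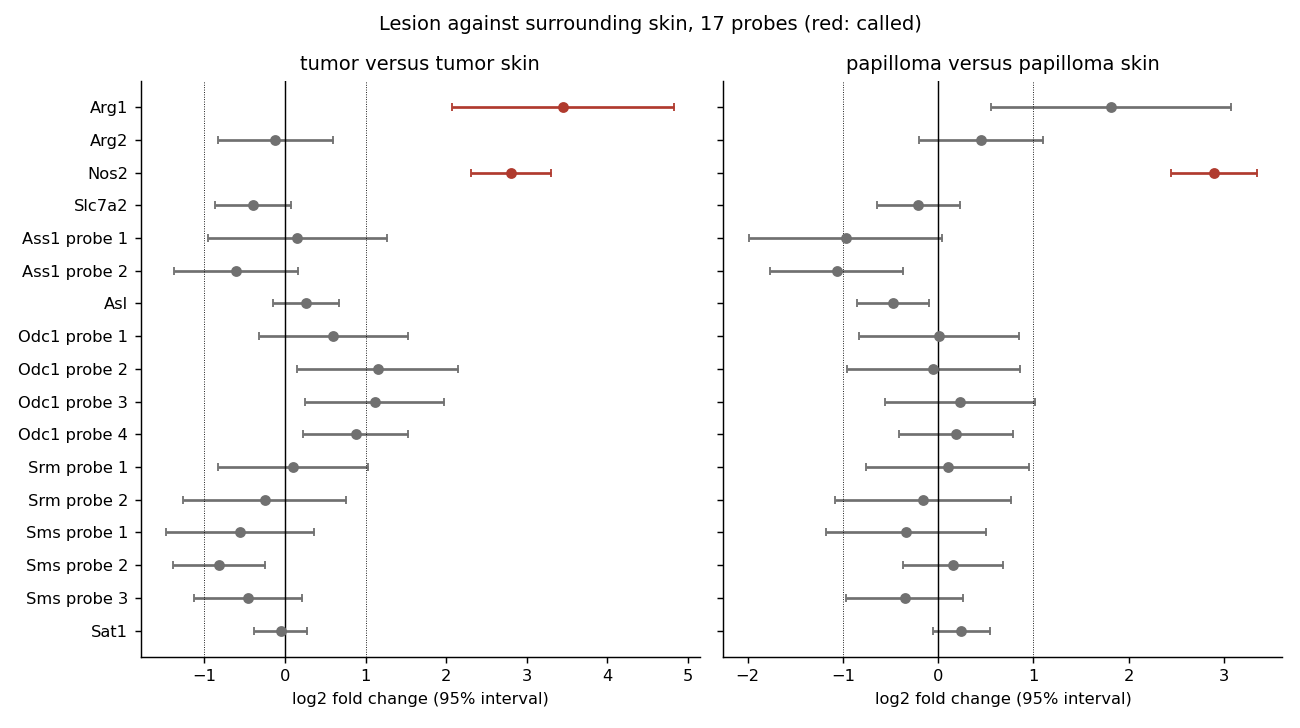
Log2 fold change of each of the 17 probes (horizontal axis, point with 95% interval from limma) in tumor against tumor skin (left) and papilloma against papilloma skin (right), with called probes in red and dotted lines at -1 and 1. Nos2 and Arg1 are red on the left and Nos2 on the right, and all other members are grey on both sides.

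Slc7a2, the inducible arginine transporter, was near the detection limit. Its log2 levels ran from 5.31 to 6.02 over the 9 arrays. The probe was well above background on 3 arrays, namely papilloma skin 1, tumor skin 1 and tumor 1, which were those with low spike-in slopes. It was not well above background on any papilloma array, and no fold is given from either source.

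Ass1, which joins citrulline and aspartate in the first step of arginine recycling, lay below papilloma skin on every papilloma array with both probes. Neither probe was called from the table with all 9 arrays, and whether probe 2 passed the threshold varied with the array left out. Probe 2, whose listing on the array also names a non-coding RefSeq transcript, had log2 levels of 10.68 and 10.48 in papilloma skin, 9.34 and 10.21 in tumor skin, 9.94, 9.11 and 9.48 in papilloma and 9.02 and 9.30 in tumor. The papilloma skin arrays were the highest of the 9. Its log2 fold change was -1.07 ± 0.30 in papilloma against papilloma skin (SE, limma adjusted p = 0.0852). From scanner signals with ComBat the same probe was called, at -1.55 ± 0.43 (SE, limma adjusted p = 0.0485).

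Probe 1 of Ass1 had log2 levels of 9.39 and 9.33 in papilloma skin, 6.87 and 8.29 in tumor skin, 9.01, 7.76 and 8.39 in papilloma and 7.63 and 7.85 in tumor. The papilloma arrays again lay below both papilloma skin arrays, and the difference was -0.97 ± 0.44 on the log2 scale (SE, adjusted p = 0.261). In tumor against tumor skin the table gave 0.16 ± 0.49 for probe 1 and -0.61 ± 0.33 for probe 2 (SE). From scanner signals with ComBat they were 1.89 and 0.78, and probe 1 gave -1.56 in papilloma, so the direction of probe 2 turned with the source.

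Asl, which cleaves argininosuccinate to arginine, had values of opposite sign at the 2 stages, and neither passed the threshold. Its log2 levels were 8.25 and 7.98 in papilloma skin, 7.87 and 7.61 in tumor skin, 7.44, 7.67 and 7.81 in papilloma and 8.01 and 8.00 in tumor. Papilloma lay below papilloma skin on all arrays (log2 fold change -0.48 ± 0.16, adjusted p = 0.142) and tumor above tumor skin (0.26 ± 0.18, adjusted p = 0.388). The difference between these effects was 0.74 ± 0.24 (SE, limma adjusted p = 0.242). With scanner signals and ComBat both signs turned, to 0.96 in papilloma and -0.18 in tumor.

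Odc1, the first and rate-limiting enzyme of polyamine synthesis, had 4 probes, and none of them was called in the table. Probe 4 had log2 levels of 8.00 and 7.50 in papilloma skin, 7.46 and 7.72 in tumor skin, 8.07, 7.89 and 7.86 in papilloma and 8.04 and 8.89 in tumor. Tumor 2 was the highest array and tumor skin 1 the lowest. The log2 fold changes in tumor against tumor skin were 0.60 ± 0.40, 1.15 ± 0.44, 1.12 ± 0.37 and 0.88 ± 0.29 for probes 1 to 4 (SE), with adjusted p of 0.0916 to 0.381. Without the columns papilloma skin 1 and tumor 1, probe 4 was called (1.30, adjusted p = 0.0341) and probes 1 to 3 were not (adjusted p of 0.102 to 0.133). In papilloma against papilloma skin the 4 probes ran from -0.05 to 0.23. The scanner signals with ComBat gave -0.75, 1.29, 1.24 and 1.62 in tumor, so that probe 1 turned, and 1.04, 0.63, 0.99 and 0.04 in papilloma, none of them called.

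The Odc1 probes are not independent. Probes 2, 3 and 4 lie together in the genome, and probes 2 and 3 share 55 positions, of which 54 held the same base. Over the 9 arrays the Pearson correlation between Odc1 probes ran from 0.836 to 0.975, the highest for the pair that overlaps most.

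Srm, the spermidine synthase, overlapped between skin and lesion at both stages with each probe. Probe 1 ran from 7.02 on tumor skin 1 to 8.52 on papilloma 1, and probe 2 from 7.97 on papilloma 2 to 9.20 on papilloma skin 1. Their log2 fold changes were 0.10 ± 0.41 and -0.25 ± 0.44 in tumor against tumor skin and 0.10 ± 0.37 and -0.16 ± 0.40 in papilloma against papilloma skin (SE). From scanner signals with ComBat they were 1.16 and 0.76 in tumor, where probe 2 turned in sign, and 0.31 and -0.56 in papilloma, none of them called.

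Sms, the spermine synthase, had its lowest group mean in tumor with all 3 probes, without a call. Probe 2 had log2 levels of 9.68 and 9.70 in papilloma skin, 9.88 and 10.48 in tumor skin, 10.11, 9.51 and 9.92 in papilloma and 9.44 and 9.28 in tumor. Both tumor arrays lay below all other arrays. In tumor against tumor skin the log2 fold changes were -0.56 ± 0.40, -0.82 ± 0.25 and -0.46 ± 0.29 for probes 1 to 3 (SE), with adjusted p of 0.0773 to 0.418. With scanner signals and ComBat, probe 2 gave -0.65 and probes 1 and 3 gave 0.03 and 0.51. For papilloma against papilloma skin, probes 1 to 3 gave -0.34, 0.16 and -0.35 from the table and 0.34, 0.91 and 0.35 from these signals. Probes 1 and 3 followed each other over the 9 arrays (Pearson r 0.953), and probe 2 followed them less (0.571 and 0.461).

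Sat1, which acetylates spermidine and spermine, was not called in any contrast of the table. Its log2 levels ran from 13.59 on papilloma skin 1 to 14.02 on papilloma 2. The log2 fold change was -0.05 ± 0.14 in tumor against tumor skin (SE, 95% interval -0.38 to 0.28) and 0.24 ± 0.13 in papilloma against papilloma skin (SE, 95% interval -0.06 to 0.55). The scanner signals with ComBat gave -0.53 and 0.72, and the second was 1.82 and called with scaling to the 75th percentile (limma adjusted p = 0.0262).

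**Figure D4:**
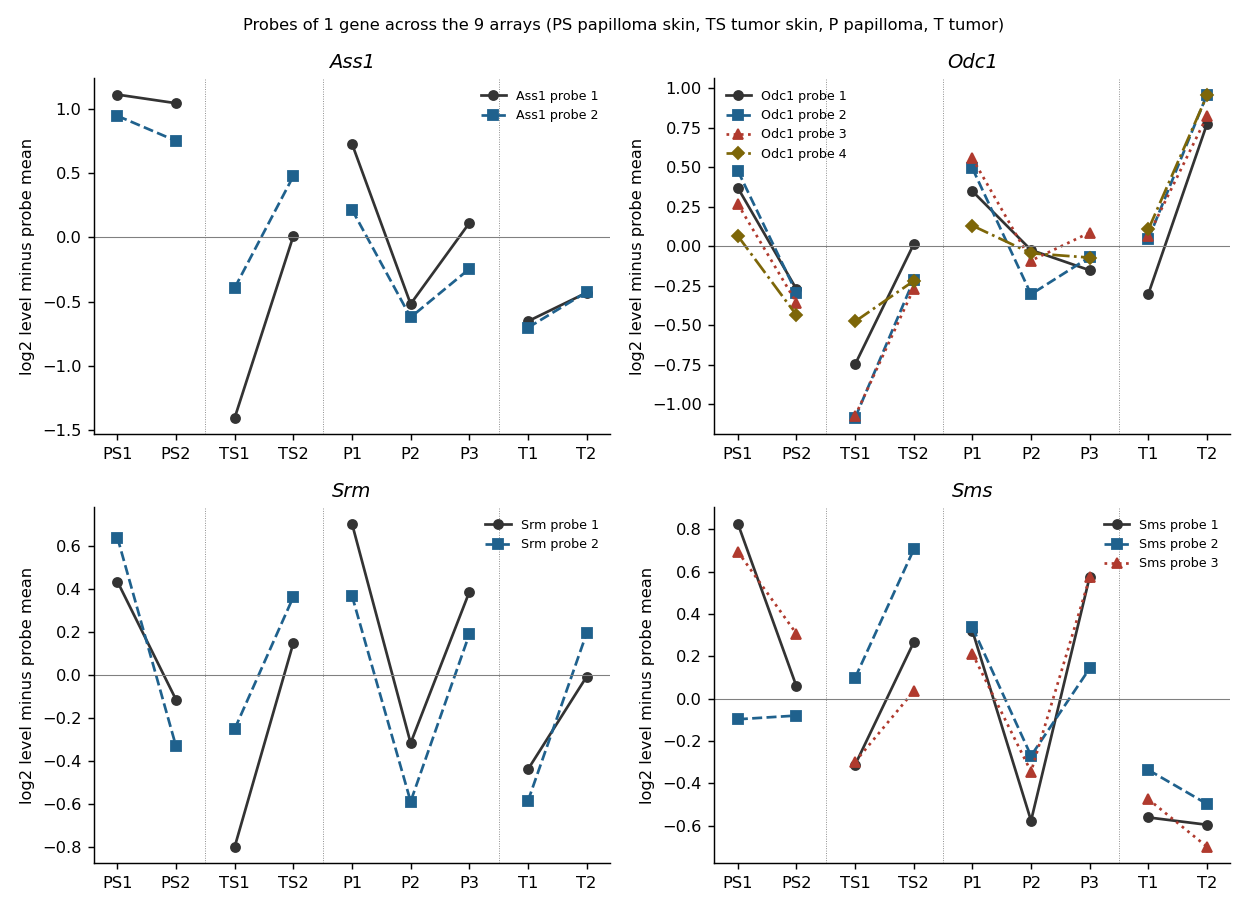
Log2 level minus the mean of the probe (vertical axis) on each of the 9 arrays (horizontal axis, PS papilloma skin, TS tumor skin, P papilloma, T tumor, with lines joining arrays of a group), for the genes with several probes. Probes of Odc1 and Srm move together from array to array, the papilloma skin arrays are the highest for Ass1, and Sms probe 2 departs from the other 2 probes in the skins.

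Other genes of arginine, NO and polyamine metabolism were followed as a list of 64 genes, of which 61 were on the array with 90 probes. In tumor against tumor skin none of these probes was called, against 2.71% of all probes called higher and 1.51% lower. Their median log2 fold change was 0.07 against -0.02 over all probes. In papilloma against papilloma skin 3 of 90 were called higher, against 2.18% of all probes, and 2 lower, against 1.00%, with a median of 0.03 against -0.01. In tumor against papilloma 1 was called lower, against 0.334% of all probes, and between the skins none was called.

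The probes called higher in papilloma were Gucy1b3 and Gucy1a3, the subunits of soluble guanylate cyclase, which is the receptor of NO, and Gchfr, a regulator of the synthesis of tetrahydrobiopterin, which NO synthases need. Gucy1a3 had log2 levels of 5.71 and 5.57 in papilloma skin, 7.42, 7.84 and 7.85 in papilloma, 5.88 and 5.40 in tumor skin and 6.70 and 6.56 in tumor. Its papilloma arrays lay above all others, and the log2 fold change was 2.06 ± 0.20 (SE, limma adjusted p = 0.00112), with papilloma skin 1 well above background and papilloma skin 2 not. Gucy1b3 was not well above background on either papilloma skin array and was at least 4.10-fold higher in papilloma (7.06, 7.33 and 7.40 against 4.99 and 5.14, limma adjusted p = 0.000316). Only its papilloma group exceeded the mean level of 6 that a call needed. In tumor against papilloma Gucy1b3 gave -1.34 ± 0.16 on the log2 scale (SE, limma adjusted p = 0.0139), a call that was lost in scanner signals with ComBat (-2.96, adjusted p = 0.0524).

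Gchfr rose by 1.33 ± 0.30 on the log2 scale (SE, limma adjusted p = 0.0380), from 6.74 and 6.38 in papilloma skin to 8.37, 7.57 and 7.74 in papilloma. Slc7a7, a light chain of the transporter that exports cationic amino acids, fell by 1.27 (SE 0.29, limma adjusted p = 0.0422). Glud1, glutamate dehydrogenase, fell by 1.01 (SE 0.15, limma adjusted p = 0.00772). The falls were not held in scanner signals with ComBat, where Slc7a7 gave 0.76 and Glud1 -0.03, whereas Gucy1a3 and Gchfr gave 3.44 and 2.18. For Gucy1b3 the quantile-normalized scanner signals gave at least 9.19-fold.

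The rises of the guanylate cyclase subunits in papilloma went with markers of vascular and stromal cells. Over all probes 2.18% were called higher and 1.00% lower in papilloma, and 2.71% and 1.51% in tumor. Of 14 endothelial probes 9 were called higher in papilloma and 4 in tumor, and none lower. Of 12 fibroblast probes 2 were called higher at each stage and 1, Dcn, lower in tumor. Pdgfrb, which pericytes also express, was higher by 3.23 in papilloma and 1.68 in tumor on the log2 scale. The summed level of the fibroblast list, as log2, was 13.81 to 14.88 in papilloma skin, 15.39 to 15.85 in papilloma, 13.21 to 13.36 in tumor skin and 12.79 to 14.08 in tumor. That of the endothelial list was 12.96 to 13.31, 13.57 to 14.23, 13.24 to 14.07 and 12.70 to 13.16 in the same order. The defining endothelial genes Cdh5 and Tek were each well above background on 7 of 9 arrays and Kdr on 8 or 9 by probe, and the defining fibroblast genes Col1a1, Col1a2 and Col3a1 on 9. Of the 6 arrays with spike-in slopes of 1.04 to 1.06, these were 4 for Cdh5 and Tek. They were 5 or 6 for Kdr and 6 for the fibroblast genes. In scanner signals with ComBat, 7 endothelial and 6 fibroblast probes were called higher in papilloma, and 3 and 1 in tumor. None was called lower there, and Dcn gave 0.11 in tumor (limma adjusted p = 0.922). In that setting 7.19% of all probes were called in papilloma and 0.221% in tumor, in either direction. The part of such cells in the rises of the guanylate cyclase subunits was not tested.

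A list of 28 regulators of the members (42 probes) gave 2 calls in tumor against tumor skin and 3 in papilloma against papilloma skin, all higher, against 2.71% and 2.18% of all probes. Their median log2 fold changes were 0.14 and 0.12. Epas1 encodes HIF-2alpha, a hypoxia-inducible factor tied to arginase in myeloid cells. Its probe with the higher mean had log2 levels of 8.98 and 8.35 in papilloma skin, 11.81, 11.80 and 11.76 in papilloma, 7.85 and 7.67 in tumor skin and 9.24 and 9.96 in tumor. Papilloma stood above every other group. The log2 fold change was 3.13 ± 0.25 in papilloma against papilloma skin (SE, limma adjusted p = 0.000496), 1.85 ± 0.27 in tumor against tumor skin (SE, limma adjusted p = 0.00709) and -2.19 ± 0.25 in tumor against papilloma (SE, limma adjusted p = 0.0122). Its other probe rose by 1.32 ± 0.18 in papilloma (SE, limma adjusted p = 0.00517). From scanner signals with ComBat the probe with the higher mean gave 5.79 in papilloma (adjusted p = 0.00724), while 1.70 in tumor against tumor skin (adjusted p = 0.357) and -1.90 in tumor against papilloma (adjusted p = 0.216) were not called. Endothelial cells also express Epas1, and their part in these values was not tested.

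The other calls among regulators were stress-response factors. Atf4, the effector of the integrated stress response and of amino acid shortage, rose by 1.18 ± 0.25 in tumor against tumor skin (SE, limma adjusted p = 0.0252), with 14.99 and 14.38 in tumor skin and 15.82 and 15.91 in tumor. Ddit3, which encodes CHOP downstream of Atf4, rose by 1.52 ± 0.31 in papilloma against papilloma skin (SE, limma adjusted p = 0.0270), with 9.78 and 10.04 in papilloma skin and 10.98, 11.82 and 11.48 in papilloma. From scanner signals with ComBat, Atf4 gave 0.58 (adjusted p = 0.447) and Ddit3 1.05 (adjusted p = 0.0808).

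Macrophages and keratinocytes can also express the members, and their markers moved with the groups. Of 21 macrophage and monocyte probes 4 were called lower in tumor and 3 in papilloma, against 1.51% and 1.00% of all probes, and none higher. The summed log2 level of that list was 16.42 to 16.89 in papilloma skin, 16.44 to 16.61 in tumor skin, 15.71 to 16.16 in papilloma and 15.54 to 15.80 in tumor. Of the defining genes, Csf1r and Emr1 gave negative log2 fold changes with every probe. The Cd68 probes gave 0.27 and 0.76 in tumor and 0.55 and 0.26 in papilloma, not called. The part of macrophages in the Nos2 and Arg1 values was not tested. The defining genes Csf1r, Emr1 and Cd68 were well above background on all 9 arrays. In scanner signals with ComBat the median of this list in papilloma was 0.11 in place of -0.59. There 4 of its probes were called higher and 1 lower, against 7.19% of all probes called in either direction.

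Keratinocyte probes were called only higher in the lesion contrasts. None was called between the lesions or between the skins, where Nos2 was called. Of 25 probes 5 were called higher in tumor and 4 in papilloma, against 2.71% and 2.18% of all probes. The summed log2 level was 13.81 to 14.36 in papilloma skin, 13.73 to 14.71 in tumor skin, 14.67 to 15.85 in papilloma and 14.93 to 16.59 in tumor. By array it was 15.85, 14.88 and 14.67 in papilloma 1, 2 and 3, and 14.93 and 16.59 in tumor 1 and 2. The defining genes Krt5 and Krt14 were well above background on all 9 arrays and Krt1 on 8, of which 5 had a full spike-in slope. The part of keratinocytes in the Nos2 and Arg1 values was not tested. Of 21 neutrophil probes 6 were called lower in tumor and 7 in papilloma, against 1.51% and 1.00% of all probes. Among them were those of the granule proteins Camp, Ngp and Ltf at both stages, at -4.14 to -2.31 on the log2 scale. The summed level of the neutrophil list was 20.16 to 20.43 in the skins and 19.84 to 20.07 in the lesions. Of 11 eosinophil probes 6 were called lower at each stage, against the same shares, and 2, both of Siglec5, higher in tumor, against 2.71%. In scanner signals with ComBat, 6 keratinocyte probes were called higher and 1 lower in papilloma, and none in tumor. Neutrophil probes called lower there were 5 in tumor and 8 in papilloma, and eosinophil probes 3 and 5. Siglec5 was not called in tumor there (1.44 and 1.22, limma adjusted p = 0.350 and 0.166). In that setting 0.221% of all probes were called in tumor and 7.19% in papilloma, in either direction. The granule genes Epx, Prg2 and Prg3 were well above background on 3, 4 and 2 arrays. Of these arrays, 1 for Prg2 and none for the others had a full spike-in slope. No mast cell probe was called in either lesion contrast, with Cpa3 well above background on 9 arrays, Cma1 on 7 and Tpsb2 on 7 or 9 by probe. Of the 6 arrays with a full slope these were 6, 4 and 4 or 6.

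The probes with the pattern most like that of Nos2 across the 9 columns, among 18907 probes with a gene symbol and a mean level of at least 6, were those of Adamtsl4 (Pearson r 0.995), Atg12 (0.995), Gpbp1l1 (0.992), Ankrd22 (0.989) and Bnip3l (0.989). Atg12 and Bnip3l act in autophagy and in removal of mitochondria. In scanner signals with ComBat these correlations ran from 0.840 to 0.987. The probes most like Arg1 were those of 1700037H04Rik (0.990), Tubb4a (0.988), Pam16 (0.986), Ctsl (0.982) and AI413582 (0.982), and they had 0.686 to 0.982 in scanner signals. Ctsl encodes the lysosomal protease cathepsin L and Tubb4a a beta-tubulin. All points of these correlations share the same 9 arrays, and the highest values of so many probes are high by selection.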

How the data were processed

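Gene expression of sorted neutrophils was measured on 9 arrays, grouped by the sample labels into papilloma skin, tumor skin, papilloma and tumor. The authors deposited scanner intensity per spot, background-subtracted by the scanner software, and a table with 1 log2 value per probe and array. Their methods name quantile normalization and ComBat, and which of these steps the table holds was not stated. In this work the table was fitted with limma 3.58.1 in R 4.3.3, with 1 coefficient per group, all 9 arrays and 5 contrasts, and p-values were adjusted over 55681 probes by the Benjamini-Hochberg method. Residual degrees of freedom were 5. Slide removal before the fit is not counted in them, so p-values may be too small. Scanner intensity was log2 transformed, flagged spots were left out, spots were averaged to 55155 probes and values were quantile normalized, with ComBat for slide in an own implementation. The fits were tested on simulated data. The members, gene lists and tests were chosen with earlier results of these data known. Named were all members, up to 6 called genes per list in each lesion contrast and up to 3 in the others, the first 3 genes of each marker list, and Camp, Ngp, Ltf, Pdgfrb, Dcn and Siglec5, chosen after their values were seen, and the 5 probes most like Arg1 and Nos2. The number of arrays limits precision, and arrays of pooled mice measure the spread between pools.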

Additional observations from a re-analysis of the deposited data

How the results depend on the processing

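Of 27 alternatives, Nos2 kept its direction in all for each of the 4 group contrasts, and it kept its call in 21 for tumor against tumor skin and 23 for papilloma against papilloma skin, including all 20 that used the deposited table. Arg1 kept its direction in all 27 for both lesion contrasts and its tumor call in 18. Some of these alternatives could not change the outcome. Without the minimum level or the minimum fold a call could not be lost. Leaving out an array of a group outside the contrast left the fold unchanged. In tumor against papilloma its log2 fold change ran from -0.017, reversed without tumor 2, to 0.82 without tumor 1 when single arrays were left out, and up to 1.73 over all 27.

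The count of members called was 2 in tumor against tumor skin. It was 1 with scanner signals and ComBat, with slide as a term and with the replicate block, 0 from scanner signals with the slide term, without slide handling, scaled to the 75th percentile with or without ComBat, and on 6 arrays, 1 to 3 leaving out single arrays, and 3, with Odc1 probe 4, with normexp and ComBat and without the columns papilloma skin 1 and tumor 1. In papilloma against papilloma skin it was 1, and 3 with ComBat on quantile-normalized or normexp signals, 4 with ComBat on scaled signals, 0 from the other scanner settings and 1 to 2 leaving out single arrays. In tumor against papilloma (1) and tumor skin against papilloma skin (1) it was 0 from all scanner settings, with the slide term, the replicate block, and without the columns papilloma skin 1 and tumor 1 or, chosen after seeing the data, papilloma 2 and papilloma 3, and 0 to 1 and 0 leaving out single arrays. It was also 0 between the skins with array weights. Regulator calls went from 2 to 0 in tumor and from 3 to 8 in papilloma with scanner signals and ComBat. In that setting 0.221% of all probes were called in tumor and 7.19% in papilloma.

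The replicate block took away the Arg1 call in tumor (3.45, adjusted p = 0.0560). Deviations of same-numbered arrays from their group means had r from -0.957 to 0.376 over 12 pairs. In every group but papilloma, the arrays deviate from their mean by equal and opposite amounts. Each r therefore recurs with the opposite sign in another pair of arrays. Whether the numbers pair the samples could not be told from these values. The cause of the changes in calls was not tested. Signal near background limits Slc7a2 and, on 1 tumor skin array, Arg1.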

Other observations

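Before any scaling, the log2 signals of Nos2 in the scanner files were 8.99 and 6.88 in papilloma skin, 9.77 and 8.84 in tumor skin, 10.18, 10.74 and 11.53 in papilloma and 12.75 and 12.96 in tumor. Those of Arg1 were 8.64 and 6.48, 7.28 and 3.83, then 7.55, 11.40 and 10.03, and 11.42 and 12.07 in the same order. Nos2 was higher in every lesion array than in every skin array, whereas papilloma 1 fell below papilloma skin 1 for Arg1. Papilloma skin 1 is the array with the lowest spike-in slope, 0.678.

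Across the 17 member probes, the direction from scanner signals with ComBat was opposite to that from the deposited table for 6 probes in tumor against tumor skin, 4 in papilloma against papilloma skin, 5 in tumor against papilloma and 5 between the skins. Neither Nos2 nor Arg1 was among them in the lesion contrasts.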
